A study of Arabidopsis thaliana with 10 samples.

Results

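Cyclic nucleotide-gated channels (CNGCs) are cation channels of plant membranes, and 10 of the Arabidopsis genes that encode them were examined among the 27826 genes on the arrays. The genes were taken by locus code and were CNGC2 (AT5G15410), CNGC4 (AT5G54250), CNGC5 (AT5G57940), CNGC6 (AT2G23980), CNGC9 (AT4G30560), CNGC11 (AT2G46440), CNGC12 (AT2G46450), CNGC14 (AT2G24610), CNGC19 (AT3G17690) and CNGC20 (AT3G17700). All 10 had a row in the table. The RefSeq gene table lists CNGC2 under DND1 and CNGC20 under CNBT1. The arrays compared roots of 20-day-old seedlings of the Col-0 wild type (5 arrays) with roots of mcu123 (5 arrays), labelled as a knockout of 3 genes of the mitochondrial calcium uniporter, MCU. Both genotypes grew in sterile hydroponics with 16 h of light at 21 °C and 8 h of darkness at 17 °C, received no treatment, and were harvested by cutting root from shoot and freezing it. Each replicate was pooled roots. The alleles in mcu123 were not analysed here, and nothing read here says that the pools came from separate cultures. The p-values therefore reflect how these pools differed from each other, which may be technical.

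A CNGC is built from subunits that each span the membrane several times, surround a pore, and carry in the cytosolic tail a cyclic nucleotide-binding domain beside sites for calmodulin, the calcium sensor protein. The channels let calcium into the cytosol, and calmodulin and protein kinases tune their activity. In roots they are known from the calcium signals of growing root hairs and of the response to auxin, and elsewhere from immunity, wounding, heat and pollen tube growth. The uniporter takes up calcium on the other side of the cytosol, into mitochondria, so the comparison asks whether loss of MCU genes goes with other transcript levels of these channels.

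None of the 10 CNGC genes differed between mcu123 and the wild type after adjustment over all genes (limma, smallest adjusted p = 0.59, for CNGC12). The background was low as well, since 12 of all 27826 genes passed, or 0.0431% (0.00359% higher and 0.0395% lower in mcu123). Estimated differences ran from -0.50 (CNGC19) to 0.43 (CNGC12) on the log2 scale, with 6 genes lower and 4 higher in mcu123 and a median of -0.08, beside 0.01 over all genes. The 95% intervals of 9 genes lay inside a 2-fold change in either direction, the exception being CNGC19, and those of 6 genes (CNGC2, CNGC4, CNGC5, CNGC6, CNGC11 and CNGC14) lay inside 1.5-fold. Of these, CNGC4 and CNGC11 had signal near the bottom of the scale, where an interval does not bound a change in transcript amount. CNGC2 was also low, at 2.45 to 3.59 under an array median of 4.30, and its interval may be limited in the same way. Without adjustment, 2 of the 10, CNGC5 and CNGC12, had a limma p below 0.05, as did 7.46% of all genes.

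**Figure D1:**
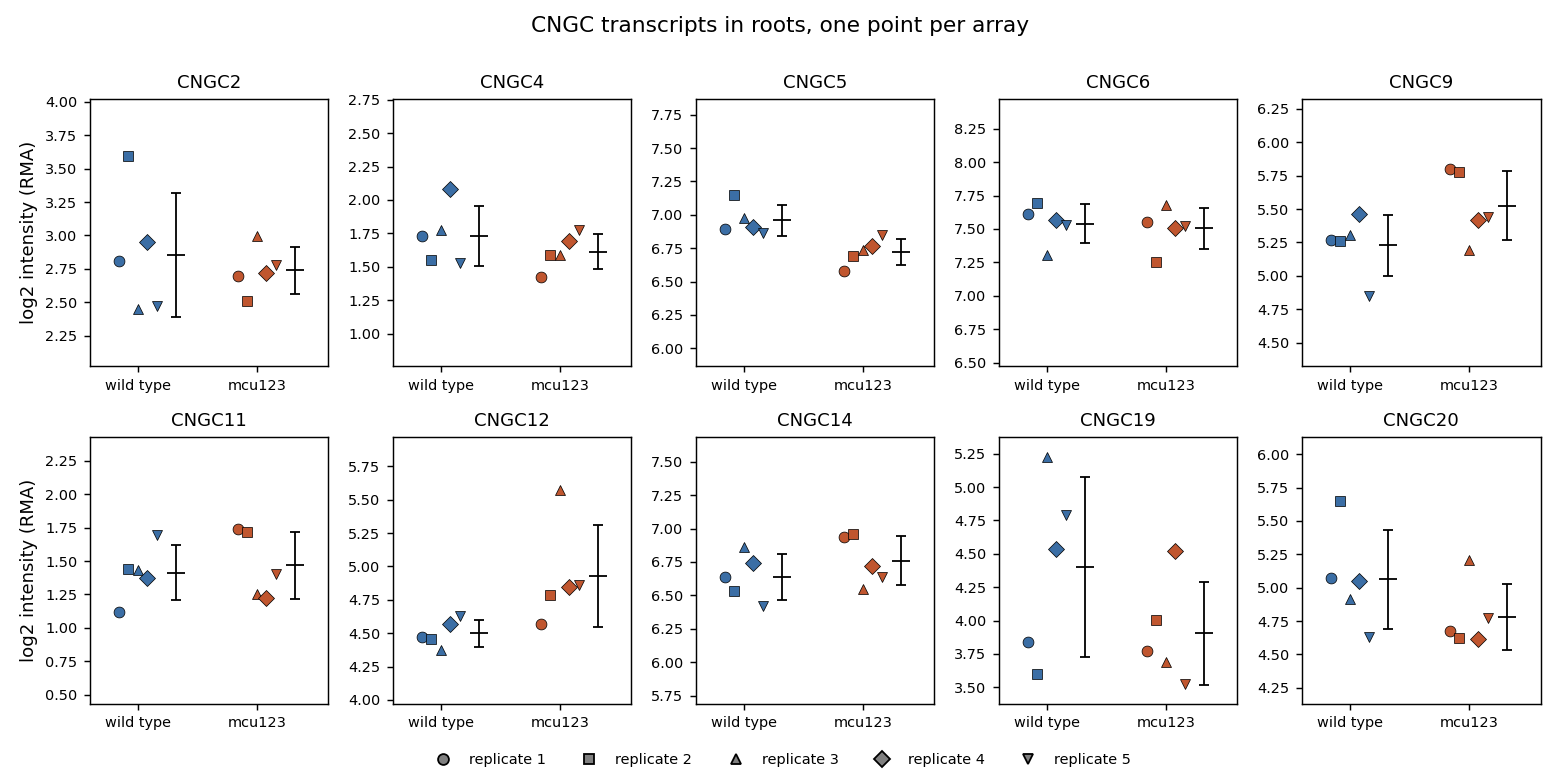
Log2 intensity (RMA) of each of the 10 CNGC genes on every array, with wild type in blue, mcu123 in orange, marker shape for the replicate and a bar for mean ± SD (n = 5). Each panel spans 2 log2 units around its own gene. The groups are separate for CNGC5 alone, and CNGC19 has the widest scatter.

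The labels were checked on the targeted genes and the tissue on markers. MCU1 and MCU3 fell by 1.66 and 1.98 on the log2 scale in mcu123 (limma adjusted p = 4.0e-04 for both), with no overlap between the genotypes, while MCU2 had a log2 difference of -0.09. The 9 root hair markers had array means of 6.45 to 6.77. Those of the 4 endodermis markers, the Casparian strip gene CASP1 among them, were 6.28 to 6.75. In each of these lists 1 gene had a mean below the array median of 4.30. Array means were 4.24 to 4.73 for xylem markers and 4.12 to 4.98 for phloem markers, with 2 of 4 and 1 of 4 genes below that median. The 6 markers of green shoots were mixed: LHCB1.1, LHCB2.1 and GAPA had means of 1.29 to 1.97, while RBCS1A, a Rubisco subunit, had 5.56 in the wild type and 6.03 in mcu123, RCA 4.72 and 4.49, and PSBO1 4.17 and 4.35. Their array means ran from 3.02 to 3.54 in the wild type and from 2.95 to 3.83 in mcu123, where replicate 5 was highest (RBCS1A at 7.98). The RMA values share one distribution on every array, with a median of 4.30 and a minimum of 0.60, and carry no detection call. Probes differ in how brightly they report a transcript, so levels of different CNGC genes are given side by side without being ranked. One array, mcu123 replicate 3, had the lowest array weight (0.39).

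CNGC5 and CNGC6 encode closely related channels that are known from guard cells and, with CNGC9, from root hair growth. CNGC5 measured 6.89, 7.15, 6.98, 6.91 and 6.86 in wild-type replicates 1 to 5, and 6.58, 6.69, 6.73, 6.77 and 6.85 in mcu123 replicates 1 to 5 (log2 intensity). Every mcu123 array lay below every wild-type array, but the gap between the genotypes was narrow, from 6.848 to 6.863. The means were 6.96 ± 0.11 and 6.72 ± 0.10 (SD, n = 5 each), a level 1.18-fold lower in mcu123 (log2 difference -0.23, 95% interval -0.46 to -0.01). This difference did not pass (limma adjusted p = 0.65), although its exact two-sided permutation p of 0.0079, unadjusted, is the smallest that 5 against 5 arrays can give. Groups without overlap were found for 1 of the 10 CNGC genes and for 1.7% of all genes. CNGC5 varied little between arrays, with a pooled SD of 0.11 that was larger than that of 3.35% of all genes.

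CNGC6, also known from heat-induced calcium entry, was the gene with the closest means. Its levels were 7.61, 7.69, 7.31, 7.57 and 7.53 in wild-type replicates 1 to 5 and 7.55, 7.25, 7.68, 7.51 and 7.53 in mcu123 replicates 1 to 5. The groups covered the same range, with wild type replicate 3 and mcu123 replicate 2 low. The log2 difference was -0.04 (95% interval -0.29 to 0.22, limma adjusted p = 0.96), which places the ratio of mcu123 to wild type between 0.818 and 1.16.

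CNGC9 and CNGC14 act in root hairs, where CNGC14 carries calcium influx at the growing tip and the fast calcium rise after auxin. CNGC9 measured 5.27, 5.26, 5.31, 5.46 and 4.85 in wild-type replicates 1 to 5 and 5.80, 5.78, 5.19, 5.42 and 5.44 in mcu123 replicates 1 to 5. The groups overlapped: mcu123 replicates 1 and 2 were above all wild-type arrays, replicate 3 was below 4 of them, and wild type replicate 5 was the lowest of all. The log2 difference of 0.30 (95% interval -0.03 to 0.63) was not past the threshold (limma adjusted p = 0.73). With an array left out it ran from 0.20, without wild type replicate 5, to 0.38. CNGC14 lay at 6.64, 6.54, 6.86, 6.74 and 6.42 in wild-type replicates 1 to 5 and at 6.94, 6.96, 6.55, 6.72 and 6.64 in mcu123 replicates 1 to 5. Its groups also overlapped, with a log2 difference of 0.12 (95% interval -0.15 to 0.39, limma adjusted p = 0.87). This was 0.067 without wild type replicate 5 and 0.073 without mcu123 replicate 2.

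Levels of CNGC9 and CNGC14 moved together from array to array. Their deviations from the genotype mean correlated at Pearson r = 0.88 and Spearman rho = 0.88 over 10 arrays, with r = 0.77 among wild-type and 0.98 among mcu123 arrays and 0.78 without the 2 arrays farthest from the median of CNGC9. In mcu123, replicates 1 and 2 were high for both genes and replicate 3 was low for both. In the wild type, replicate 5 was lowest for both. The correlation describes arrays that share their RNA pool and normalisation, and it was the second highest of 45 pairs among the 10 genes. Over all 10 arrays the mean of 9 markers of root hair cells correlated at r = 0.11 with CNGC9 and -0.13 with CNGC14. The sign differed by genotype. Among wild-type arrays r was -0.43 for CNGC9 and -0.74 for CNGC14, and among mcu123 arrays it was 0.55 and 0.41. That list had no gene past the test in either direction and a median log2 difference of 0.11, and its gene of smallest p was the expansin EXPA7 (0.28, limma adjusted p = 0.81).

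CNGC2 and CNGC4 form channels of the plasma membrane that open in the immune response, and plants without either show constant defence with a dwarf shoot. CNGC2 measured 2.81, 3.59, 2.45, 2.95 and 2.47 in wild-type replicates 1 to 5 and 2.69, 2.51, 2.997, 2.72 and 2.78 in mcu123 replicates 1 to 5. Wild type replicate 2 stood above the other 9 arrays, and the mcu123 range lay within the wild-type range. The log2 difference was -0.11 (95% interval -0.55 to 0.32, limma adjusted p = 0.93), and it turned to 0.07 without wild type replicate 2. CNGC4 lay near the bottom of the scale at 1.53 to 2.08 in the wild type (median 1.73) and 1.43 to 1.77 in mcu123 (median 1.59). A difference of -0.12 (95% interval -0.40 to 0.16) was measured, but at this level signal and background cannot be separated, so the interval sets no limit on a change.

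CNGC11 and CNGC12 are neighbouring genes on chromosome 2, with CNGC3 on the other side of CNGC11, and a fusion of CNGC11 with CNGC12 is known as an allele that triggers defence and cell death. Transcripts of such near copies can share probe sequence, and how probes were grouped is not known here, so their values are uncertain as measures of one gene. CNGC12 measured 4.47, 4.46, 4.37, 4.57 and 4.63 in wild-type replicates 1 to 5 and 4.57, 4.79, 5.57, 4.85 and 4.86 in mcu123 replicates 1 to 5. In mcu123, 4 arrays were above every wild-type array, replicate 1 lay within the wild-type range, and replicate 3 was far above the rest. The means were 4.50 ± 0.10 and 4.93 ± 0.38 (SD, n = 5 each), and the level was 1.35-fold higher in mcu123 (95% interval 1.05 to 1.73) without passing the test (limma adjusted p = 0.59). The exact two-sided permutation p was 0.024, unadjusted. Without mcu123 replicate 3 the log2 difference was 0.27 in place of 0.43. CNGC11 showed no parallel pattern, at 1.12 to 1.70 in the wild type (median 1.44) and 1.22 to 1.74 in mcu123 (median 1.40), where background cannot be told from signal.

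CNGC19 and CNGC20 lie next to each other on chromosome 3. CNGC19 is known from calcium signals after wounding, herbivory and the danger peptides called Peps, and both genes act in cell death that is held in check by the receptor kinase BAK1. CNGC19 was the most variable of the 10 genes, at 3.84, 3.602, 5.23, 4.53 and 4.79 in wild-type replicates 1 to 5 and 3.77, 4.01, 3.69, 4.52 and 3.53 in mcu123 replicates 1 to 5. Wild-type arrays fell into 3 high and 2 low values, and the highest mcu123 array, replicate 4 (4.524), lay just under the lowest of the 3 (4.535). Its means were 4.40 ± 0.67 and 3.90 ± 0.39 (SD, n = 5 each), and the log2 difference of -0.50 had an interval from -1.13 to 0.14 (limma adjusted p = 0.76). A fall of more than 2-fold is therefore within the interval for this gene. The difference was -0.29 without wild type replicate 3 and -0.70 without wild type replicate 2. Its pooled SD of 0.55 was larger than that of 95.3% of all genes.

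CNGC20 measured 5.07, 5.65, 4.92, 5.05 and 4.63 in wild-type replicates 1 to 5 and 4.67, 4.62, 5.21, 4.62 and 4.78 in mcu123 replicates 1 to 5. The groups overlapped, with wild type replicate 2 and mcu123 replicate 3 the highest of their genotypes. A log2 difference of -0.28 (95% interval -0.68 to 0.12, limma adjusted p = 0.79) was -0.14 without wild type replicate 2 and -0.39 without mcu123 replicate 3. CNGC19 and CNGC20 did not vary in the same direction although they are neighbours. Their deviations from the genotype mean correlated at r = -0.69 and rho = -0.83 over 10 arrays. Among wild-type arrays r was -0.77, and among mcu123 arrays -0.50. Wild type replicate 2 was the lowest of its genotype for CNGC19 and the highest for CNGC20.

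**Figure D2:**
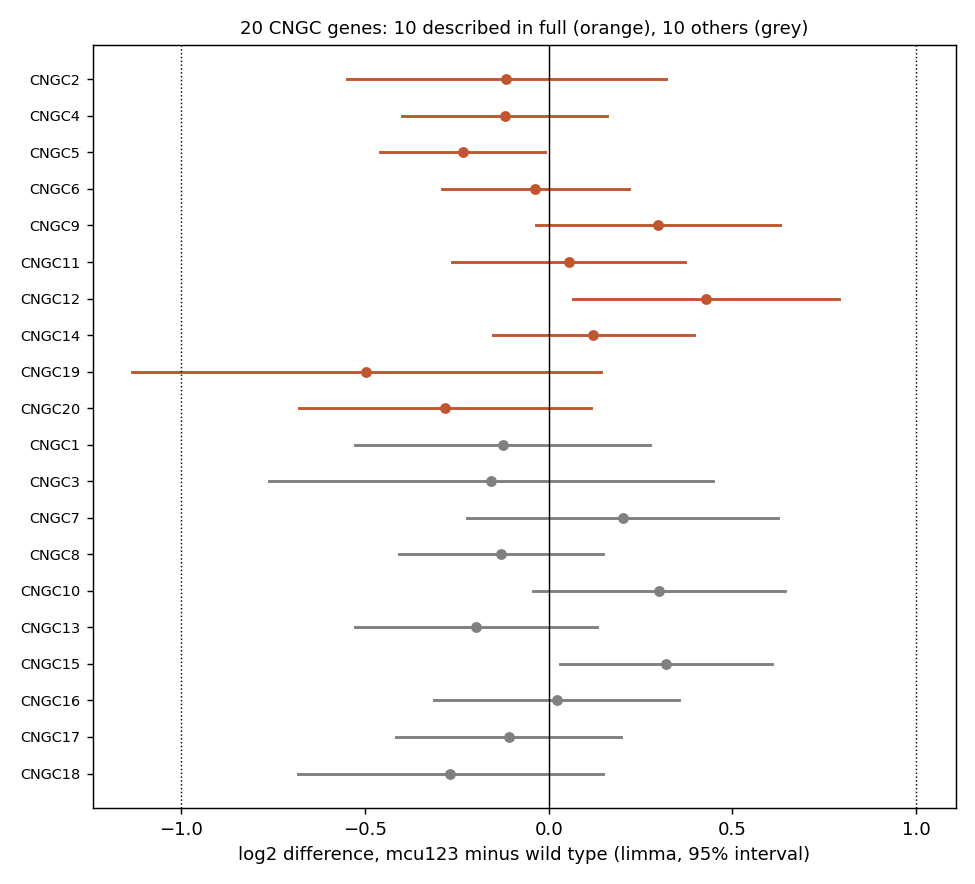
Log2 difference of mcu123 minus wild type (x axis, limma) for 20 CNGC genes (y axis), with points for estimates, lines for 95% intervals and dotted lines at a 2-fold change. Intervals of CNGC5, CNGC12 and CNGC15 exclude 0 before adjustment, and the interval of CNGC19 alone crosses a 2-fold change.

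The other 10 CNGC genes gave the same picture, with 0 past the test (limma, adjusted p at least 0.62), 6 with lower and 4 with higher means in mcu123 and a median log2 difference of -0.12. Without adjustment, CNGC15 alone, 1 of these 10, had a limma p below 0.05, as did 7.46% of all genes. CNGC15, known in nuclear calcium signalling from Medicago, measured 5.49, 5.98, 5.89, 5.79 and 6.14 in wild-type replicates 1 to 5 and 5.97, 6.21, 6.33, 6.16 and 6.21 in mcu123 replicates 1 to 5. All but 1 of the mcu123 arrays were above the highest wild-type array, with a log2 difference of 0.32 (95% interval 0.03 to 0.61, limma adjusted p = 0.62). CNGC10 had a difference of 0.30 (limma adjusted p = 0.73) that was 0.15 without mcu123 replicate 3, where it was at 6.97. CNGC3, the neighbour of CNGC11, had -0.16 (95% interval -0.76 to 0.45), and CNGC1, a channel of root cation uptake, had -0.13. The value for CNGC3 was -0.37 without wild type replicate 5 and -0.32 without mcu123 replicate 3, and that for CNGC1 was -0.29 without wild type replicate 5 and -0.02 without wild type replicate 3. CNGC17, which acts with the phytosulfokine receptor PSKR1, and CNGC13 had -0.11 and -0.20. CNGC7, CNGC8, CNGC16 and CNGC18, best known from pollen, had means of 1.40 to 2.35 in both genotypes, and their log2 differences of 0.20, -0.13, 0.02 and -0.27 lie in a range where background cannot be separated.

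**Figure D3:**
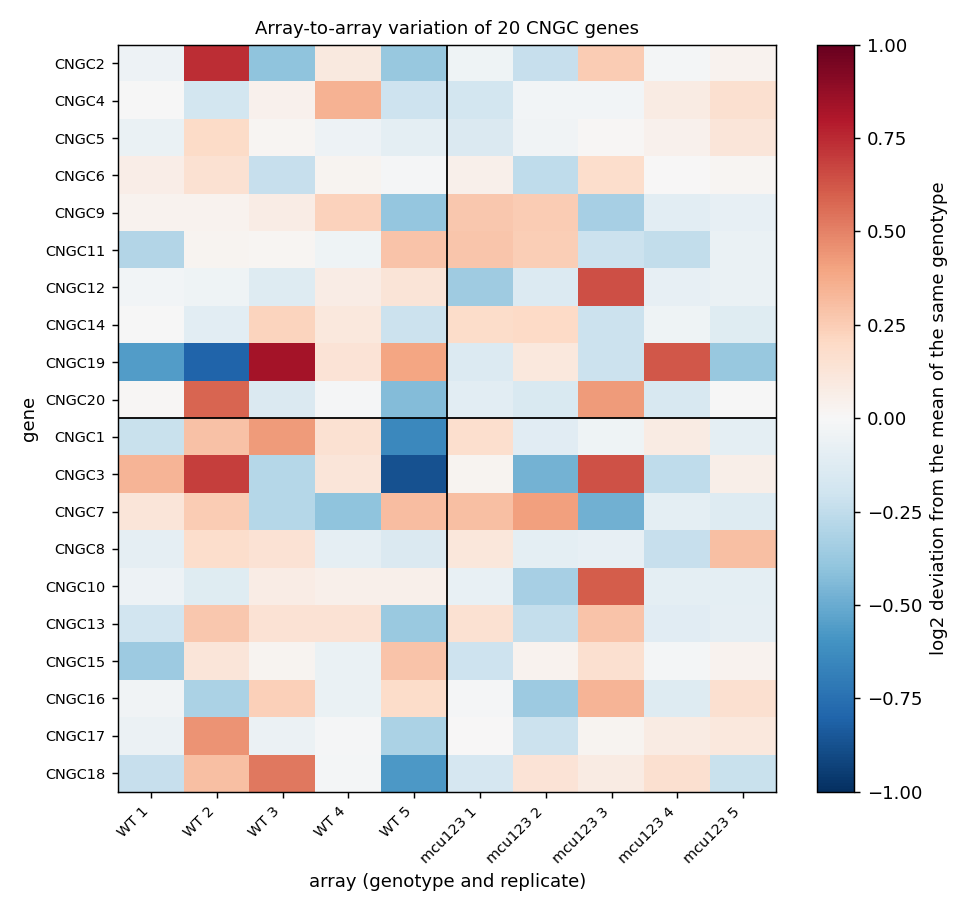
Deviation of each array from the mean of its own genotype (colour, log2 scale) for the 10 CNGC genes described in full (above the line) and the other 10 (below), with arrays along the x axis. Wild type replicate 2 and mcu123 replicate 3 are high for CNGC20 and CNGC3, and the strongest colours are CNGC3 in wild type replicate 5 and CNGC19 in wild type replicates 3 and 2.

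Within the genotypes the 10 genes did not vary as one group. Of their 45 pairs, 21 had a positive correlation of deviations over the 10 arrays, the median r was -0.05, 3 pairs were above 0.7 (CNGC2 with CNGC20, CNGC9 with CNGC14, CNGC2 with CNGC6) and 1 was below -0.7 (CNGC2 with CNGC19). CNGC2 and CNGC20 correlated at r = 0.91 and rho = 0.72, with r = 0.90 without the 2 arrays farthest from the median of CNGC2. CNGC20 also followed CNGC3 (r = 0.93, rho = 0.95, and 0.94 without the 2 farthest arrays), with r = 0.92 in wild-type and 0.93 in mcu123 arrays. CNGC12 and CNGC10 had r = 0.85 and rho = 0.55. Without the 2 arrays farthest from the median of CNGC12, mcu123 replicates 3 and 1, r was 0.56. The effect of replicate 3 alone was not computed. All such values are descriptions of 10 arrays that share their normalisation. CNGC2 also moved with the mean of 4 endodermis markers (r = 0.91, rho = 0.90). Without the 2 arrays farthest from the median of the marker mean, r was 0.69. The correlation of 0.91 was the highest positive r of the 10 genes over all gene lists searched, with 0.96 in wild-type and 0.62 in mcu123 arrays. It was not particular to CNGC2, since CNGC17 and CNGC6 had r = 0.80 and 0.77 with these markers, while others ran against them, such as CNGC19 at -0.58. In whole roots, fewer cells of a type and less RNA per cell cannot be told apart. The part of cell makeup in the CNGC values was not tested.

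**Figure D4:**
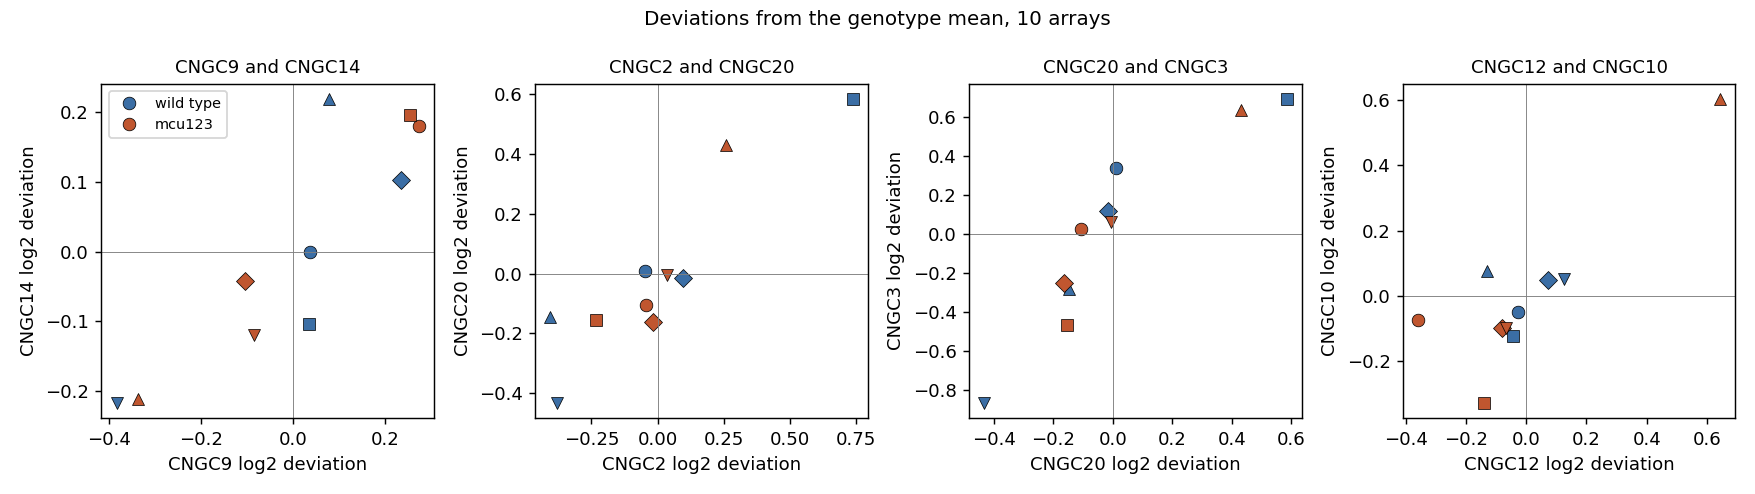
Log2 deviations from the genotype mean for 4 pairs of CNGC genes, one point per array, with wild type in blue, mcu123 in orange and marker shape for the replicate as in the plot of levels by array. Points rise along a diagonal for CNGC9 with CNGC14 and CNGC20 with CNGC3, while 1 mcu123 array, replicate 3, sets CNGC12 with CNGC10 apart.

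The genes whose array-to-array pattern was most like that of the 3 most variable members were looked up among 13909 genes above the array median. For CNGC19 they were GN (AT1G13980, r = 0.95), a regulator of membrane traffic, MC9 (AT5G04200, r = 0.95), a metacaspase, and AT5G19100 (r = 0.93). For CNGC2 they were LARP6b (r = 0.96), AR192 (r = 0.94) and ATSK12 (r = 0.93). For CNGC20 they were AT1G48540, AT5G01720 and AT4G26600, each at r = 0.98. These are the top values of a search over many genes on 10 arrays, and they describe likeness only.

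Genes that work with the channels were read from lists, and none of their members passed the test in either direction, where 0.0431% of all genes passed. Of 7 calmodulin genes, 3 had higher and 4 lower means, with a median log2 difference of -0.03, and CAM2 had the smallest p (-0.45, limma adjusted p = 0.50). Among 12 receptors, kinases, proton pumps and regulators linked to CNGCs, 9 had lower means and the median was -0.19. PEPR1, a receptor for Pep peptides, measured 7.29, 7.14, 7.65, 7.04 and 6.84 in wild-type replicates 1 to 5 and 6.33, 6.28, 6.31, 6.79 and 6.23 in mcu123 replicates 1 to 5. Groups without overlap were found for PEPR1 alone, 1 of these 12 genes, and for 1.7% of all genes. PEPR1 had the smallest p of the list, and its log2 difference of -0.80 (95% interval -1.15 to -0.45) came with a limma adjusted p of 0.15. The kinases BIK1 and BAK1, which act on CNGC2 with CNGC4 and on CNGC20, had -0.26 and -0.14 (limma adjusted p = 0.82 and 0.86). The BIK1 value was -0.44 without mcu123 replicate 3.

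PROPEP1, PROPEP2 and PROPEP3, the precursors of Pep peptides, had log2 differences of -0.58, -0.63 and -1.23 (limma adjusted p = 0.39, 0.73 and 0.51), all lower in mcu123 without passing. The groups did not overlap for PROPEP1, 1 of these 3, where 1.7% of all genes had such groups. Without wild type replicate 2 the values for PROPEP2 and PROPEP3 were -0.38 and -0.80. Of the 5 auxin entry and receptor genes, AFB1, the receptor of the fast auxin response in roots, had the smallest p (log2 difference 0.39, limma adjusted p = 0.59). Its groups did not overlap, as for 1 of these 5 genes and 1.7% of all genes. The uptake carrier AUX1 had -0.07, and -0.24 without mcu123 replicate 3. Other calcium channels of the plasma membrane and vacuole, 9 genes, had a median of -0.03, with OSCA1.3 at -0.64 (limma adjusted p = 0.63). This was -0.40 without mcu123 replicate 2.

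Markers of fast wound and touch responses were set beside CNGC19, a gene of wound signalling. All 9 had lower means in mcu123, with a median of -0.53, and 0 passed (limma adjusted p at least 0.30, for ZAT12). Without adjustment, 6 of the 9 had a limma p below 0.05, against 7.46% of all genes. The 9 markers share arrays and were chosen with earlier results of these data known, so this count is not a test. Their mean per array ran from 7.01 to 8.61 in the wild type and from 6.91 to 7.54 in mcu123. It was highest in wild type replicate 3, as CNGC19 was, but lowest in wild type replicate 5, where CNGC19 was high at 4.79. The correlation of deviations was r = 0.22 and rho = 0.31. Without the 2 arrays farthest from the median of the marker mean, r was 0.27. For CNGC14 the values were r = 0.71, rho = 0.72, and r = 0.46 without the same 2 arrays. This was not particular to CNGC14, since CNGC1, CNGC18 and CNGC9 had r = 0.89, 0.83 and 0.62 with these markers. Others ran against them, such as CNGC12 at -0.50. Heat shock genes, read beside CNGC6, had a median of 0.01 over 5 genes, with HSP70-4 at -0.59 (limma adjusted p = 0.82, and -1.06 without mcu123 replicate 3). Their mean was highest in mcu123 replicate 3 (4.67, against at most 3.92 elsewhere), the array in which CNGC12, CNGC10, CNGC15 and CNGC16 were also highest. The correlation of deviations with this mean was r = 0.49 for CNGC6. Without the 2 arrays farthest from the median of this mean it was 0.33. The corresponding values were 0.85 and -0.04 for CNGC12, and 0.92 and 0.63 for CNGC10. Xylem and phloem markers, 4 of each, had medians of -0.09 and 0.08, with IRX5 at -0.31 and the sucrose transporter SUC2 at -0.85 (-0.46 without mcu123 replicate 3). The 4 endodermis markers had a median of -0.04, with 2 higher and 2 lower means in mcu123, and CASP1 was at -0.22. The 6 markers of the photosynthetic shoot had a median of 0.02, with 3 higher and 3 lower means. Among them RBCS1A was at 0.47 and RCA at -0.23 (-0.12 without mcu123 replicate 3). The part of these cell types and responses in the CNGC values was not tested.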

How the data were processed

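Roots of Col-0 wild type and mcu123 were measured on 10 Affymetrix arrays, 5 per genotype. Per the submitters' processing notes, the authors made the deposited log2 intensity values with RMA, which subtracts background, gives all arrays 1 distribution and summarises the probes of a gene. The 27826 rows, each named by a locus code, and 10 columns were used as deposited. For array model, probe grouping, build and scan batches, nothing is given in the sources used here. The number of arrays limits the precision. The RefSeq gene table (TAIR10.1) gave symbols and gene neighbours.

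The test of genotype used limma 3.58.1 under R 4.3.3 (lmFit and eBayes, no covariate, two-sided, Benjamini-Hochberg adjustment over all 27826 genes, threshold 0.05). On simulated data with 27826 genes this fit, for the comparison of mcu123 with wild type, recovered 19.2% of genes given a log2 change of 0.5, 74.8% at 1 and 92% at 1.5. Many more genes were changed in the simulation than the 12 that passed here, which makes the adjusted threshold easier to reach. The shares can therefore overstate what this comparison would recover. Exact permutation tests of single genes ran over all divisions of the arrays into 5 and 5, in scipy 1.17.1.

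The 10 members and the gene lists were chosen with earlier results of these data known. Named were all 20 CNGC genes, the member of smallest p in each list (or up to 3 that passed), MCU1 to MCU3, and the 3 genes most correlated with each of the 3 most variable members among genes above the array median; BIK1, BAK1, AUX1, PROPEP2, PROPEP3 and the remaining shoot markers were added after their values were seen. Alternatives were leaving out the dimmest 30%, cyclic loess, centring on 8 reference genes, array weights, a replicate block, a robust prior with trend, and each array left out. Same-numbered arrays of the genotypes did not deviate together (correlations -0.21 to 0.09), so the number was not treated as pairing.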

Additional observations from a re-analysis of the deposited data

Results flagged for a closer look

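For the 20 CNGC genes, the 3 MCU genes and the list genes with values in the text, the 5 arrays of a genotype were searched for 1 that stood apart, by Dixon's gap-to-range ratio, which is given in parentheses. Of 90 such groups, 10 held one, 6 of them in mcu123 replicate 3. For independent groups fixed in advance, chance alone would give about 5%, or 4.5. These groups share arrays, and some genes, BIK1 and AUX1 among them, were added after their values were seen. The counts are therefore a description, and no excess over chance can be read from them. In mcu123 replicate 3, CNGC20 was at 5.21 (0.7331), where the other mcu123 arrays were at 4.62 to 4.78, and CNGC10 was at 6.97 (0.7283) against 6.03 to 6.29. The same array was far from its group for HSP70-4, at 8.87 (0.7155), for SUC2, at 3.23 (0.8191), for BIK1, at 7.96 (0.7417), and for AUX1, at 10.59 (0.7979). PEPR1 was high in mcu123 replicate 4, at 6.79 (0.8215), and PROPEP1 in wild type replicate 3, at 5.81 (0.7652). AFB1 was low in wild type replicate 2, at 6.01 (0.7221), and high in mcu123 replicate 2, at 7.23 (0.8319).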

How the results depend on the processing

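None of the 10 CNGC genes and none of the 87 genes of the other lists (MCU and reference genes not counted) passed in any of the 16 alternative fits, and the smallest adjusted p of a member over them was 0.36. Of 158 such values for the 10 genes, 152 kept their direction. The 6 others changed sign near 0 with an array left out: CNGC2 ranged from -0.22 to 0.070, CNGC6 from -0.095 to 0.027 and CNGC11 from -0.019 to 0.13. The same held for CNGC3 (-0.37 to 0.017), CNGC16 (-0.064 to 0.11), CNGC17 (-0.19 to 0.0034) and MCU2 (-0.20 to 0.0062), and array weights moved CNGC16 to -0.016. Among shoot markers, the sign turned for RBCS1A (-0.018 to 0.77), GAPA (-0.12 to 0.17) and LHCB2.1 (-0.058 to 0.046), the last also when centred on reference genes (0.0064) and with array weights (0.050). CNGC4, CNGC7, CNGC8, CNGC11 and CNGC18 were left out of the fit without the dimmest 30%. The count of 12 genes over the whole table was 7 without the dimmest 30%, 7 centred on 8 reference genes, 35 with a trended and robust prior, 30 with array weights, 8 with the replicate block, and 5 to 22 with an array left out. Leaving out mcu123 replicate 3 gave the 22, leaving out mcu123 replicate 2 gave 7, leaving out replicate 4 of either genotype gave 6, and the 5 came without mcu123 replicate 5 or wild type replicate 1 or 3. The cause of these shifts was not tested. The replicate block changed no call of a CNGC gene. Scaling moved the median of all genes by little, from 0.01 to 0.03 with reference genes. Low signal over background limits CNGC4, CNGC11 and the 4 pollen channels, and it may limit CNGC2.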
